A study of Mus musculus with 2 samples.

Results

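The 9 genes described here were grouped to place intestinal cells along the length of the gut. Gata4, Pdx1 and Onecut2 are transcription factor genes of the proximal side, and Osr2, Fabp6, Slc10a2, Slc51a and Slc51b are genes of the distal side. Gata6 is a related factor gene without a sharp regional limit. All 9 were chosen by gene symbol and found among the 32285 genes counted. They had at least 20 unique molecular identifiers (UMIs, each standing for 1 captured RNA molecule) over both libraries, as did 16051 genes in all. Single Tomato+ epithelial cells of the whole small intestine, pooled from 4 to 5 mice of 4 to 6 weeks of age, had been sorted by flow cytometry and sequenced from the 3′ end in 1 library per genotype. WT cells came from Neurog3Cre; Rosa26tdtomato mice, in which Cre under the promoter of the endocrine progenitor gene Neurog3 turns on the Tomato reporter. NFKO cells came from Neurog3Cre-FoxO1 f/f, Rosa26tdtomato mice, in which the same Cre also deletes the floxed FoxO1 gene in the Neurog3 lineage. Both genotypes thus share the Cre and the reporter, and attached pancreata were removed before the cells were isolated. With 1 pooled library per genotype there is no replicate, so no test was made, and every interval is a 95% interval that covers counting error only. Whether genotype or another property of the pools set a difference cannot be told apart.

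The small intestine is patterned from duodenum to ileum, and its epithelium keeps that position through transcription factors. Gata4 maintains the proximal programme and represses ileal genes, Pdx1 marks the duodenum and the pancreas, Onecut2 is a factor of the proximal bowel, and Osr2 is a zinc finger factor that increases towards the ileum, whereas Gata6 is expressed along the whole length. Bile acids are reclaimed by ileal enterocytes: Slc10a2 carries them in through the brush border, Fabp6 binds them in the cytosol, and Slc51a with Slc51b forms the exporter of the basolateral membrane.

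The libraries held 5051 WT and 7540 NFKO barcodes, of which 3003 and 5292 were kept, with 78722460 and 111249836 UMIs and medians of 16883 and 17039 UMIs per cell. The kept cells of the 2 libraries shared 4 barcodes. Clusters built without the members were named by marker genes, and gave 896 WT and 1888 NFKO enteroendocrine-like, 839 and 1568 goblet-like, 264 and 248 Paneth-like, 87 and 140 tuft-like, 265 and 374 enterocyte-like, 294 and 188 stem-like and 101 and 288 cycling-like cells, while 16 and 4 cells were immune-like and 241 and 594 stayed unnamed. Stem-like cells also led with cycling genes, and 1 goblet-like cluster (cluster 3) held 583 WT and 21 NFKO cells and was led by stress genes such as Hspa1a. Hspa1a, a heat shock gene, stood at 294 CPM (UMIs of the gene per 1000000 UMIs of the cells) in WT and 23.1 CPM in NFKO cells. Foxo1 stood at 11.6 and 12.4 CPM. Whether the counted 3′ end lies outside the floxed part was not given in the sources used here, so its level does not check the labels. The paper reports that sorted Tomato+ cells of NFKO mice had significantly lower FoxO1 expression. By sex-linked transcripts 2424 WT cells were typed male and 6 female, against 357 and 4359 NFKO cells, so sex and genotype cannot be told apart over all cells. Immune markers summed to 25.9 and 2.47 CPM (0 of 9 at 0), mesenchymal and endothelial markers to 1.87 and 2.33 CPM, and pancreatic acinar markers to 17.7 and 31.8 CPM, of which Cela1 gave 17.4 and 30.04 CPM and Cpa1, Try4 and Amy2a5 were at 0. Their part in the results was not tested.

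Sequence upstream of the transcription start was printed for the 5 members of 9 found in the RefSeq promoter table (build GRCm38.p6). The bile acid genes among them were highest in enterocyte-like cells, and Pdx1 was highest in enteroendocrine-like cells. The stretches run 5′ to 3′ on the gene's strand and stop before any annotated transcript. They cover chr5:147269847-147269958 on the plus strand for Pdx1 and, on the minus strand, chr11:43601563-43601812 for Fabp6, chr8:5105352-5105537 for Slc10a2, chr16:32487880-32488129 for Slc51a and chr9:65422956-65423023 for Slc51b. Capitals mark the letters TTTATG, a form of the site of the Cdx factors, on either strand (CATAAA is the same site on the other strand).
Pdx1: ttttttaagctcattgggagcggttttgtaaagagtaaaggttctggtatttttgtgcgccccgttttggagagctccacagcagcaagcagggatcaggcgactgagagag
Fabp6: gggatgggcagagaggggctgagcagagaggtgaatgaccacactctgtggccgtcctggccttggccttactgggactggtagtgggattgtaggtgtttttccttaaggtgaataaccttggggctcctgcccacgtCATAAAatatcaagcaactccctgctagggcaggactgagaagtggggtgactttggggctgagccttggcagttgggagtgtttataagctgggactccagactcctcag
Slc10a2: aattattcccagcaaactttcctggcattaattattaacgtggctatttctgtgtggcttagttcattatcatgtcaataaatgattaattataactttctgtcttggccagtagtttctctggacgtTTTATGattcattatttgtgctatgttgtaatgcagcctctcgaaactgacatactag
Slc51a: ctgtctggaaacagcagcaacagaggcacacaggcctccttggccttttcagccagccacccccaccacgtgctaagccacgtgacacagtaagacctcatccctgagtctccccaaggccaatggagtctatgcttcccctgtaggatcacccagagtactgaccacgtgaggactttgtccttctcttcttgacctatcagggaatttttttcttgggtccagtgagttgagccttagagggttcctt
Slc51b: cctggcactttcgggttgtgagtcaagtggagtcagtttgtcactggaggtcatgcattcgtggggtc
The motifs were searched in the whole window of 250 bases before the RefSeq start of each gene, of which the stretches printed for Pdx1 (112 bases), Slc10a2 (186 bases) and Slc51b (68 bases) show only a part. TTTATG stood once in the window of Fabp6 and once in that of Slc10a2, and it was present in 10.8% of all 32851 promoter windows of 250 bases. AGATAA, a site of the GATA factors found in 9.99% of promoters, and the inverted repeat bound by the bile acid receptor Fxr (0.0335%), each searched on both strands, were not found in these 5 windows. A match is a description of the letters, not a shown binding site. No such motif overlapped another.

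Over all kept cells, 4 of the 9 members were called higher in the NFKO library and 0 lower. A gene was called higher or lower where its NFKO/WT ratio of CPM was at least 1.5 or at most its inverse and the interval of the ratio left out 1. By the same rule 16.9% of the 16051 genes were higher and 4.64% lower, with a median log2 ratio of 0.21 over all genes. The 4 members were Pdx1 (2.83 in WT and 14.96 CPM in NFKO, ratio 5.28, interval 4.59 to 6.10), Onecut2 (57.0 and 91.7 CPM, ratio 1.61), Slc10a2 (3.01 and 5.97 CPM, ratio 1.98) and Slc51b (17.3 and 26.2 CPM, ratio 1.52). Only the Pdx1 call held under all 10 alternatives of scaling, weighting and filtering; that of Onecut2 held in 5, of Slc10a2 in 8 and of Slc51b in 6. Called neither were Gata4 at 21.6 and 25.3 CPM, Gata6 at 74.8 and 82.6 CPM, Osr2 at 43.0 and 33.2 CPM, Fabp6 at 383 and 280 CPM (ratio 0.730, but 1.56 and called higher in male-typed cells) and Slc51a at 22.0 and 31.0 CPM. These sums depend on the mix of cells, and enteroendocrine-like cells made up 29.8% of WT and 35.7% of NFKO cells and enterocyte-like cells 8.82% and 7.07%. The members were therefore followed class by class.

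In enteroendocrine-like cells 2 members were higher (Pdx1, Slc51b), where 5.88% of all genes counted were, and 2 were lower (Osr2, Fabp6), where 6.33% were. Enterocyte-like cells had 4 higher (Pdx1, Slc10a2, Slc51a, Slc51b), beside 10.1% of genes, and 0 lower, beside 7.74%. Goblet-like cells had 3 higher (Pdx1, Onecut2, Slc51a), beside 7.97%, and 2 lower (Osr2, Fabp6), beside 5.78%. Of the proximal genes only Pdx1 was thus higher in all 3 of these classes. Gata4 was called in none of them, although it was called higher in goblet-like cells without cluster 3. Gata6, which has no sharp regional limit, was also called in none. Within the distal genes the directions were mixed in enteroendocrine-like and goblet-like cells, where Osr2 and Fabp6 were lower and Slc51b or Slc51a was higher, while in enterocyte-like cells Osr2 and Fabp6 were called neither. The median log2 ratio over all genes was -0.04, -0.02 and -0.02 in the 3 classes, so the scale itself hardly moved within a class.

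**Figure D1:**
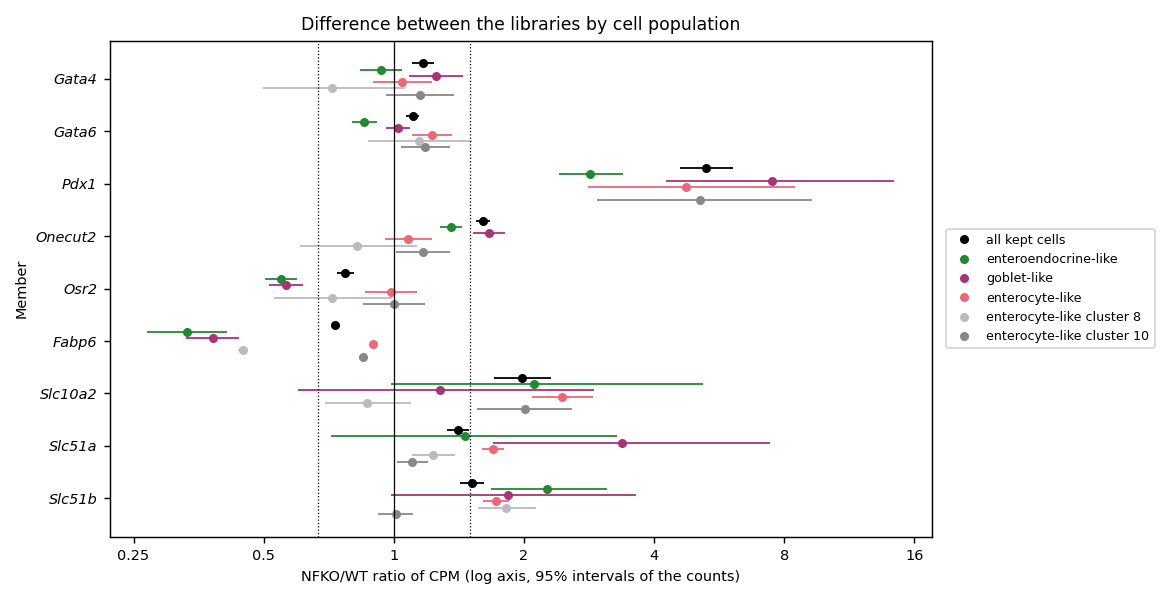
NFKO/WT ratio of CPM of each member on a log axis, over all kept cells, in 3 cell classes and in both enterocyte-like clusters; bars are 95% intervals from the counts, the solid line marks 1 and the dotted lines the 1.5-fold limits in both directions. Pdx1 lies to the right in each population shown that had WT counts, from 2.85 in enteroendocrine-like to 7.49 in goblet-like cells, while Osr2 and Fabp6 lie to the left in enteroendocrine-like and goblet-like cells.

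Gata4 (ENSMUSG00000021944, chr14:63198922-63271692, minus strand, GRCm38), which keeps proximal identity, differed between the libraries by less than the limit for a call in each class. It was highest in enterocyte-like cells, at 42.5 CPM in WT and 44.5 CPM in NFKO, and in enteroendocrine-like cells, at 40.6 and 37.9 CPM. Goblet-like cells had 15.1 and 18.9 CPM (ratio 1.25), with a ratio of 1.72 within cluster 0, called higher, and 1.18 within cluster 1. Without cluster 3 the goblet-like ratio was 1.68, and with cells weighted equally 1.53, both called higher. Paneth-like cells had the lowest level, 3.17 and 4.56 CPM. They were also lowest for each of the other factor genes in both libraries, so this order is not particular to proximal genes. The intervals of enterocyte-like and enteroendocrine-like cells overlapped in WT (37.8 to 47.6 and 36.9 to 44.6 CPM), so their order was not resolved. Across the 7 classes the NFKO/WT ratio ran from 0.842 to 1.44, with 0 of 7 called. Among hormone subtypes K, I and X cells, which make GIP, cholecystokinin and ghrelin, carried 53.1, 48.4 and 50.3 CPM in WT and 41.4, 44.3 and 45.2 CPM in NFKO. L cells, which make GLP-1 and PYY and are most frequent distally, had 27.5 and 20.4 CPM, and D cells, which make somatostatin, 21.1 and 17.0 CPM. Gata4 was called in 0 of 9 subtypes.

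Gata6 (ENSMUSG00000005836), the GATA factor without a sharp regional limit, varied less between classes than Gata4. Paneth-like cells again were lowest, at 28.3 and 29.5 CPM, and enteroendocrine-like cells highest, at 118 and 101 CPM, while the 5 other classes lay between 69.6 and 99.9 CPM in both libraries. The NFKO/WT ratio ran from 0.855 to 1.23 over the 7 classes and was called in 0 of them. X cells had 150 and 148 CPM, and enterochromaffin (EC) cells with Tac1 had 132 and 133 CPM. Only the Neurog3+ progenitors were called among the 9 subtypes, lower, at 160 and 106 CPM (ratio 0.660, interval 0.527 to 0.827), where 3.41% of genes were lower.

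Pdx1 (ENSMUSG00000029644, chr5:147269959-147275848, plus strand), the duodenal and pancreatic factor, was higher in the NFKO library in each of the 5 classes with enough counts. Enteroendocrine-like cells had 14.7 CPM in WT and 41.9 CPM in NFKO (ratio 2.85, interval 2.41 to 3.38), and 11.0% and 25.8% of these cells had at least 1 UMI. With equal weight to each hormone subtype that ratio was 1.99, still called higher. Goblet-like cells had 0.685 and 5.13 CPM (ratio 7.49, interval 4.26 to 14.4), from 13 and 159 UMIs. Enterocyte-like cells had 2.42 and 11.5 CPM (ratio 4.74). Stem-like cells had 0.875 and 5.85 CPM (ratio 6.69), where 4.52% of all genes were higher. Cycling-like cells had 1.44 and 6.98 CPM (ratio 4.84), where 5.38% were higher. Tuft-like and Paneth-like cells held too few UMIs to be called, 1 and 14 in tuft-like and 3 and 13 in Paneth-like cells. The enteroendocrine-like cells had the highest level in both libraries. Paneth-like cells had a Pdx1 UMI in 0.758% of WT and 4.03% of NFKO cells at median depths of 52837.5 and 40353.5 UMIs, against 1.43% and 7.97% of goblet-like cells at 24212 and 21852 UMIs.

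To read these low levels against free RNA, Pdx1 was set beside hormone genes that goblet-like and Paneth-like cells should not make. In NFKO goblet-like cells Pdx1 reached 12.2% of its enteroendocrine-like level, while Gip reached 0.759% and Sst 0.452%. The same was seen in NFKO enterocyte-like cells, at 27.4% for Pdx1, 1.25% for Gip and 0.588% for Sst. The part of free RNA in the goblet-like and enterocyte-like Pdx1 levels was not tested. In stem-like cells Pdx1 stood at 5.95% in WT and 14.0% in NFKO, beside Gip at 0.416% and 0.321%. Sst stood at 0.171% and 6.68% there, and Chgb, a secretory granule gene, at 6.72% and 2.20%. The part of free RNA in the stem-like Pdx1 level was not tested. In NFKO Paneth-like cells Pdx1, Gip and Sst were close together, at 2.05%, 1.27% and 2.15%. In WT Paneth-like cells Pdx1 was at 0.966% from 3 UMIs, beside Gip at 0.237% and Sst at 0.117%. The part of free RNA in the Paneth-like Pdx1 level was not tested. Thinned to 2000 UMIs per cell, Pdx1 was detected in 0.239% of WT and 1.05% of NFKO goblet-like cells and in 0% of Paneth-like cells of both libraries. Within the goblet-like class, cluster 0 (168 WT and 753 NFKO cells) had 0.228 and 4.39 CPM and cluster 1 (88 and 794 cells) had 1.47 and 7.03 CPM, the WT values resting on 1 UMI each. Cluster 3 had 0.791 CPM in WT and 0 UMIs in its 21 NFKO cells.

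**Figure D2:**
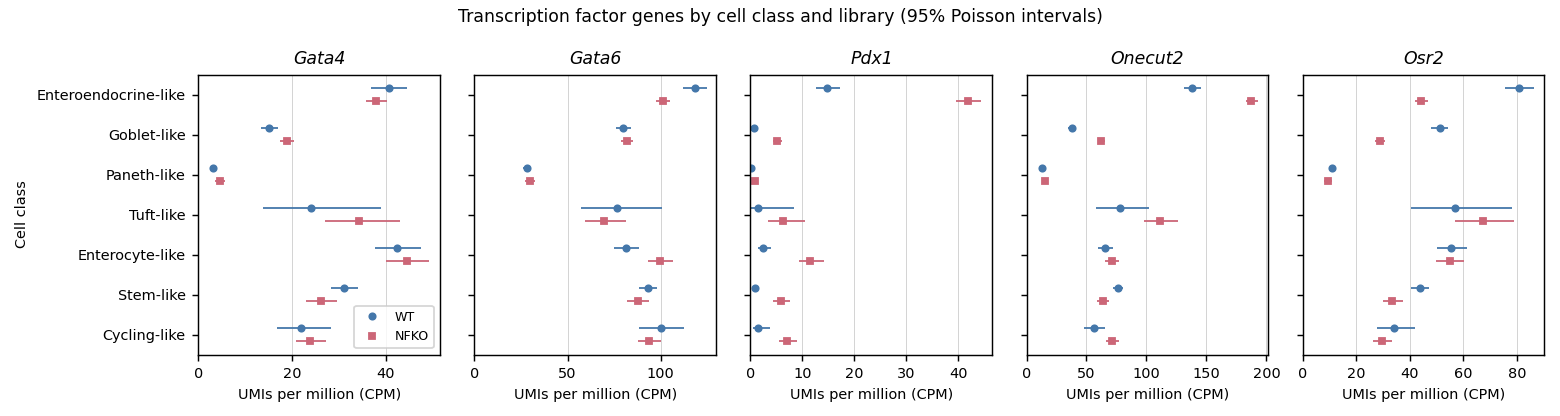
Levels of the 5 transcription factor genes in CPM (linear axes from 0) in 7 cell classes; circles are WT, squares are NFKO and bars are 95% Poisson intervals of the summed counts. Pdx1 is higher in NFKO in the 5 classes with enough counts (tuft-like and Paneth-like cells had too few), Osr2 is lower in NFKO enteroendocrine-like and goblet-like cells, and the Gata4 and Gata6 points of both libraries lie close together.

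Hormone subtypes were assigned to enteroendocrine-like cells by their most counted hormone. By subtype, Pdx1 was concentrated in D cells, at 103 CPM in WT and 193 CPM in NFKO (ratio 1.88), in K cells, at 38.8 and 80.5 CPM (ratio 2.08), and in I cells, at 20.8 and 45.2 CPM (ratio 2.17). In both libraries the order was D, K, I, and the intervals of these 3 levels did not overlap. EC cells with Tac1 had 5.26 and 15.6 CPM (ratio 2.97) and X cells 0.680 and 6.08 CPM (ratio 8.95, interval 1.45 to 369), the latter from 1 and 23 UMIs. These 5 subtypes were called higher, beside 4.49% of genes in D, 3.43% in K, 3.99% in I, 5.89% in EC with Tac1 and 4.48% in X cells. L cells, at 4.01 and 9.03 CPM, and N cells, which make neurotensin, at 11.9 and 7.02 CPM, were not called, and their intervals of the ratio (0.935 to 6.21 and 0.214 to 1.88) were wide. The mix of subtypes differed between the libraries. K cells made up 13.1% of WT and 19.97% of NFKO enteroendocrine-like cells and D cells 4.24% and 5.03%. L cells made up 14.2% and 7.68% and EC cells without Tac1 2.34% and 10.6%. The part of this mix in the class-wide Pdx1 ratio of 2.85 was not tested. The cells with male-typed transcripts of both libraries gave a Pdx1 ratio of 2.29 in enteroendocrine-like, 3.42 in enterocyte-like and 7.37 in goblet-like cells.

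**Figure D3:**
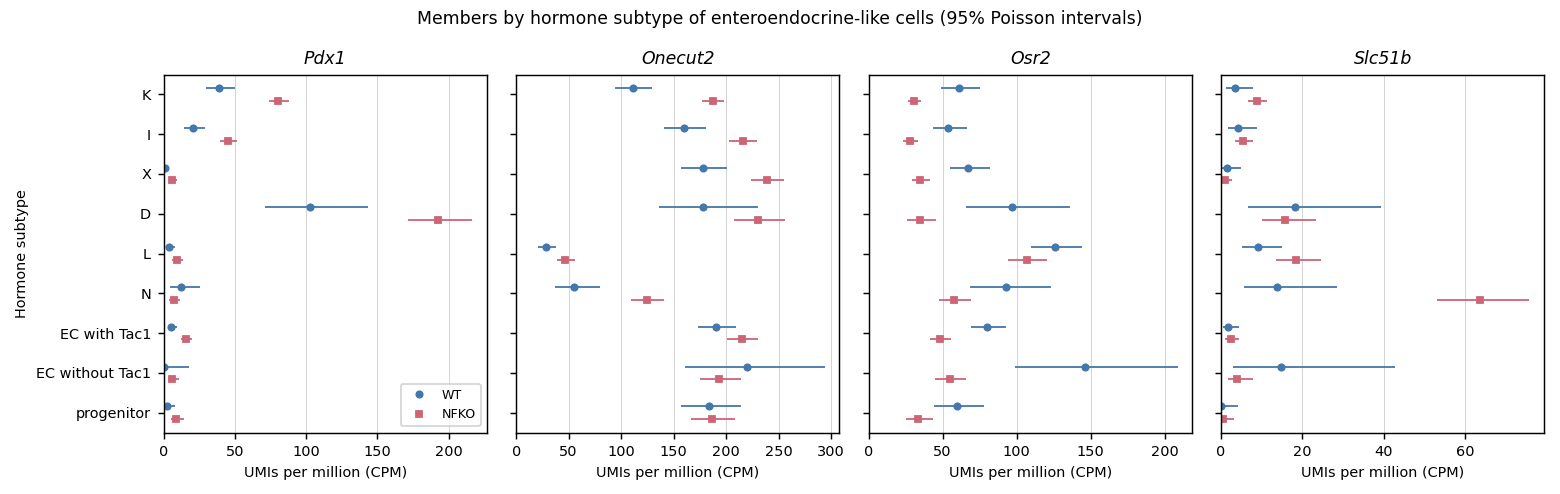
Levels in CPM (linear axes from 0) of Pdx1, Onecut2, Osr2 and Slc51b in 9 hormone subtypes of enteroendocrine-like cells; circles are WT, squares NFKO, bars 95% Poisson intervals. Pdx1 peaks in D and K cells, Onecut2 is lowest and Osr2 high in L cells, and Slc51b stands out in NFKO N cells at 63.7 CPM.

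Onecut2 (ENSMUSG00000045991), the proximal homeodomain factor, was also highest in enteroendocrine-like cells, at 138 CPM in WT and 188 CPM in NFKO. That ratio of 1.36 (interval 1.28 to 1.44) was below the limit for a call. Goblet-like cells had 37.6 and 62.5 CPM and were called higher (ratio 1.66, interval 1.52 to 1.81); within them cluster 0 had a ratio of 1.72, cluster 1 of 1.13 and cluster 3 of 1.95. Enterocyte-like cells, at 65.7 and 71.0 CPM, were not called, nor were Paneth-like cells, the lowest class at 13.3 and 15.5 CPM. Among the subtypes Onecut2 was lowest in L cells, at 28.7 and 46.7 CPM, and next in N cells, at 55.3 and 124 CPM, while the other 7 subtypes lay between 111 and 239 CPM. L, N and K cells (K at 111 and 187 CPM) were called higher, with ratios of 1.63, 2.25 and 1.69, where 5.39%, 5.72% and 3.43% of genes were. The lowest Onecut2 level in both libraries was thus in the 2 subtypes that are most frequent in the ileum. WT N cells were shallow, with a median of 4977.5 UMIs against 16598.5 in NFKO.

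Osr2 (ENSMUSG00000022330, chr15:35296098-35303305, plus strand), the distal zinc finger factor, was lower in NFKO in enteroendocrine-like cells, at 80.9 CPM in WT and 44.3 CPM in NFKO (ratio 0.548, interval 0.503 to 0.598). Goblet-like cells had 51.2 and 28.8 CPM (ratio 0.563, interval 0.514 to 0.617). Within the goblet-like class cluster 0 had 26.4 and 28.5 CPM (ratio 1.08), cluster 1 had 67.4 and 29.6 CPM (ratio 0.439, interval 0.321 to 0.614) and cluster 3 had 58.2 and 25.3 CPM (ratio 0.434, interval 0.216 to 0.782, from 809 and 11 UMIs). The call was lost without cluster 3 (ratio 0.904). Enterocyte-like cells were level, at 55.6 and 54.9 CPM, and tuft-like cells had 57.0 and 67.4 CPM. Paneth-like cells were lowest, at 11.1 and 9.39 CPM.

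By hormone subtype Osr2 was called lower in 8 of 9. The ratio was smallest in D cells, at 96.6 and 34.6 CPM (ratio 0.358), and in EC cells without Tac1, at 147 and 54.8 CPM (ratio 0.374). It lay between 0.502 and 0.621 in K, I, X, N, EC with Tac1 and progenitor cells. L cells, at 126 and 107 CPM (ratio 0.847, interval 0.707 to 1.02), were not called, and they had the highest level of the 9 subtypes in NFKO. The shares of all genes called lower were 9.32% in K, 7.04% in I, 5.12% in X, 8.98% in D, 12.5% in N, 3.55% in EC with Tac1, 3.51% in EC without Tac1 and 3.41% in progenitor cells. Osr2 and Onecut2 thus had opposite orders in L cells, where Osr2 was high and Onecut2 low in both libraries. Over male-typed cells the Osr2 ratio was 0.619 in enteroendocrine-like and 0.451 in goblet-like cells.

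Fabp6 (ENSMUSG00000020405, chr11:43596049-43601540, minus strand), the ileal bile acid-binding protein, was an enterocyte transcript in both libraries. Enterocyte-like cells had 4059.9 CPM in WT and 3626 CPM in NFKO (ratio 0.893), and 9 WT and 7 NFKO cells held 50% of those UMIs. It was detected in 45.7% and 29.7% of enterocyte-like cells. The next highest class reached 136 CPM. Enteroendocrine-like cells had 17.7 and 5.89 CPM (ratio 0.332) and goblet-like cells 28.3 and 10.8 CPM (ratio 0.381), both called lower. Tuft-like cells had 136 and 5.80 CPM (ratio 0.0425), where 11.4% of genes were lower, and 1 WT cell held 50% of the tuft-like UMIs. Paneth-like cells went the other way, at 4.64 and 21.6 CPM (ratio 4.66), where 10.2% of genes were higher, with 50% of the NFKO UMIs in 2 cells. Without cells at or above 1000 CPM of Fabp6 the ratio was 0.460 in enteroendocrine-like, 0.600 in goblet-like, 0.317 in tuft-like and 2.86 in Paneth-like cells. In male-typed cells it was 0.699 in enteroendocrine-like and 1.00 in goblet-like cells, called in neither. The goblet-like and Paneth-like levels were small beside enterocyte-like cells, at 0.697% and 0.297% and at 0.114% and 0.596% of that level. Alpi, an alkaline phosphatase gene of the enterocyte brush border, stood at 0.703% and 0.739% in goblet-like and at 0.189% and 0.677% in Paneth-like cells. Fabp6 was thus no larger a share there than Alpi, whose WT values rest on 10 and 3 UMIs. The part of free RNA in these Fabp6 levels was not tested.

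Set against the enterocyte-like level, Fabp6 in enteroendocrine-like cells was 0.437% in WT and 0.162% in NFKO. Alpi stood at 1.23% and 0.987% there, so these traces of Fabp6 were no larger than those of another enterocyte transcript. The part of free RNA in them was not tested. Among the subtypes Fabp6 was called lower in K (10.2 and 4.72 CPM), X (10.9 and 1.85 CPM), L (26.9 and 7.46 CPM), N (41.5 and 10.5 CPM) and EC cells with Tac1 (24.6 and 8.21 CPM), where 6.06% of genes were lower in L cells. N cells had the highest WT value and X cells the lowest NFKO value.

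**Figure D4:**
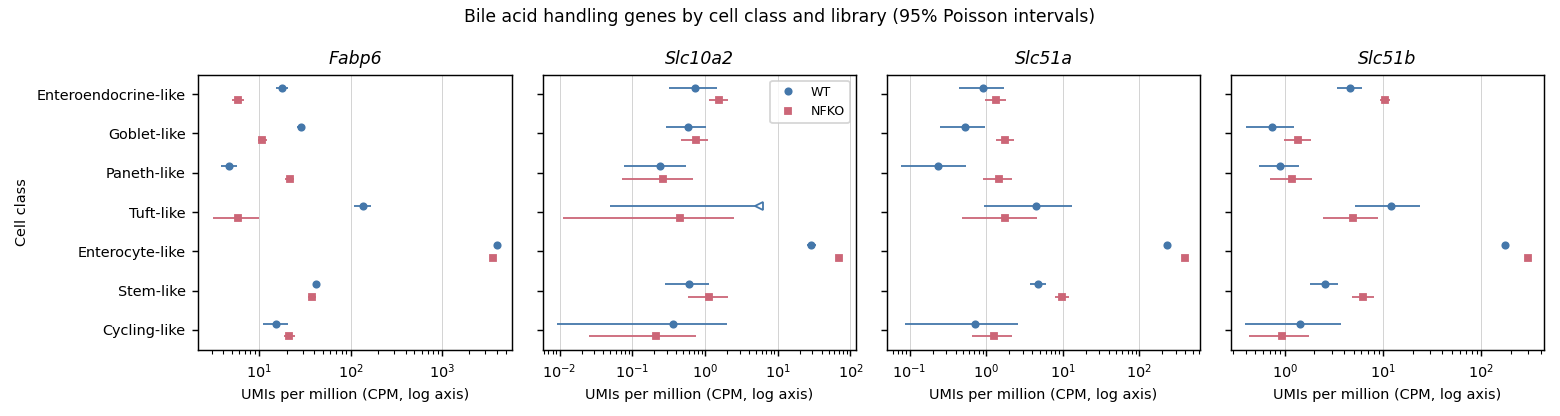
Levels in CPM (log axes) of the 4 bile acid handling genes in 7 cell classes; circles are WT, squares NFKO and bars 95% Poisson intervals, and the open triangle marks the upper limit where the count was 0. Enterocyte-like cells stand far to the right of every other class for all 4 genes in both libraries.

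Slc10a2 (ENSMUSG00000023073, chr8:5083219-5105351, minus strand), the apical bile acid transporter, was at 28.8 CPM in WT and 70.5 CPM in NFKO enterocyte-like cells (ratio 2.45, interval 2.08 to 2.89). Its UMIs sat in few cells, with 50% in 11 WT and 5 NFKO cells. The highest level in the other classes was 1.55 CPM, in NFKO enteroendocrine-like cells. Slc51a (ENSMUSG00000035699, chr16:32474504-32487879, minus strand), the alpha subunit of the bile acid exporter, was at 232 and 393 CPM in enterocyte-like cells (ratio 1.70, interval 1.60 to 1.80). Goblet-like cells had 0.527 and 1.77 CPM and were called higher (ratio 3.37) from 10 and 55 UMIs, a call that was lost without cluster 3 (ratio 2.24, interval 0.827 to 8.53). Those levels are 0.227% and 0.451% of the enterocyte-like level, beside 0.703% and 0.739% for Alpi, and the part of free RNA in them was not tested. Stem-like cells had 4.78 and 9.82 CPM (ratio 2.06) and Paneth-like cells 0.237 and 1.45 CPM (ratio 6.15). The Paneth-like levels of Slc51a are 0.102% and 0.370% of the enterocyte-like level, beside 0.189% and 0.677% for Alpi, and were likewise not tested for free RNA. Slc51b (ENSMUSG00000053862, chr9:65412714-65422955, minus strand), the beta subunit, was at 174 and 301 CPM in enterocyte-like cells (ratio 1.73, interval 1.61 to 1.85) and at 2.56 and 6.27 CPM in stem-like cells (ratio 2.45).

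The enterocyte-like class joined 2 clusters of unequal depth, and that mattered for these 3 transporter genes. Cluster 8 (124 WT and 213 NFKO cells, median 3977 and 6466 UMIs) supplied 9.59% of the WT and 41.0% of the NFKO enterocyte-like UMIs, and cluster 10 (141 and 161 cells, median 38229 and 27781 UMIs) the rest. Cluster 8 was led by genes of proximal absorption such as Lct and Apoa4, but also by Cubn, which is listed below as distal. Fabp6 was among the leading genes of cluster 10. Yet Fabp6, Slc10a2, Slc51a and Slc51b all stood higher in cluster 8 than in cluster 10 in both libraries, so the leading genes do not place either cluster. The Slc10a2 ratio was 0.868 in cluster 8 (143 and 124 CPM) and 2.01 in cluster 10 (16.7 and 33.5 CPM). For Slc51a it was 1.23 (519 and 639 CPM) and 1.10 (202 and 222 CPM), below the limit for a call in both. For Slc51b it was 1.82 (272 and 495 CPM) and 1.011 (164 and 166 CPM). Fabp6 had ratios of 0.448 (10577 and 4739 CPM) and 0.847 (3368 and 2854 CPM). Pdx1 was at 0 UMIs in WT and 8.36 CPM in NFKO in cluster 8 (at least 1.87-fold higher, taking 3 UMIs for the WT count) and at 2.68 and 13.7 CPM in cluster 10. The class-wide transporter ratios therefore include a different weighting of the clusters, whereas the higher Pdx1 was seen in both.

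Enterocyte-like cells were then divided by Fabp6 itself, at 1000 CPM, a limit chosen after the values were seen, with 19 WT and 10 NFKO cells between 500 and 2000 CPM. Fabp6-high cells made up 27.2% of WT cells (72 of 265, Clopper-Pearson interval 21.9% to 33.0%) and 14.97% of NFKO cells (56 of 374, 11.5% to 19.0%). The share was lower in NFKO in cluster 8, at 29.8% and 15.96%, and in cluster 10, at 24.8% and 13.7%. Fabp6 itself was at 15179 CPM in WT and 25030 CPM in NFKO Fabp6-high cells (ratio 1.65). Fabp6-high cells carried the other bile acid genes: Slc10a2 was at 105 and 453 CPM in them and at 1.55 and 6.28 CPM in Fabp6-low cells, Slc51a at 495 and 1157 against 137 and 265 CPM, and Slc51b at 393 and 807 against 95.4 and 216 CPM. Onecut2 took the opposite side, at 1.08 and 1.70 CPM in Fabp6-high and 89.0 and 82.7 CPM in Fabp6-low cells. Gata4 was at 14.0 and 13.6 CPM in Fabp6-high and at 52.7 and 49.7 CPM in Fabp6-low cells, and Gata6 at 58.2 and 66.3 against 89.8 and 105 CPM. Osr2 was at 77.0 and 127 CPM in Fabp6-high and at 47.9 and 42.7 CPM in Fabp6-low cells. Pdx1 had 0 and 1 UMI in Fabp6-high cells, which allows up to 1.99 CPM in WT, and 3.30 and 13.3 CPM in Fabp6-low cells.

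In each library Slc10a2, Slc51a, Slc51b and Osr2 were thus higher in Fabp6-high cells, and Gata4, Gata6, Pdx1 and Onecut2 in Fabp6-low cells. The grouping used Fabp6 only, so the levels of the other members were not fixed by it. Per cell, after thinning to 2000 UMIs, the 3 transporter genes and Onecut2 lay on the same sides: Slc10a2 was detected in 20.2% of WT cells with Fabp6 and in 18 of 60 such NFKO cells, against 0.575% and 1.11% of cells without it. Onecut2 was detected in 2.25% of WT and 0 of 60 NFKO cells with Fabp6 (which allows a share of up to 5.96%), against 13.8% and 15.1% of cells without it. Slc51a was detected in 52.8% and 78.3% with Fabp6 and 27.0% and 43.9% without it, and Slc51b in 47.2% and 53.3% against 17.2% and 31.7%. The intervals overlapped for Gata4 (5.62% and 3.33% with Fabp6 against 10.3% and 9.59% without it), for Osr2 (12 of 89 and 12 of 60 cells against 8.62% and 9.23%) and for Gata6 (19.1% and 13.3% against 15.5% and 17.3%), whose WT share went the other way.

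When both divisions were combined, the 3 transporter genes had higher levels in NFKO in all 4 groups of cells. The Slc10a2 ratio was 1.80 in Fabp6-high and 1.88 in Fabp6-low cells of cluster 8 and 3.76 and 1.81 in those of cluster 10. The Fabp6-low groups held few UMIs of Slc10a2 (3 and 36, and 5 and 8), and their intervals spanned 1 (0.595 to 9.56 and 0.522 to 7.03). Slc51a had 1.71, 1.67, 1.66 and 1.17 in the same order, and Slc51b 2.43, 2.31, 1.33 and 1.25. Alpi, which is no bile acid gene, had ratios of 1.56, 2.34, 2.91 and 2.91, so a higher level within these groups was shared by another enterocyte gene. Fabp6-high cells of cluster 10 had 62.0 and 233 CPM of Slc10a2. Fabp6 itself was at 12950 and 20613 CPM in them, so the libraries were not matched in it there. In Fabp6-high cells of cluster 8 it was at 31082 and 30682 CPM. Among the factors, Onecut2 reached at most 4.38 CPM in the Fabp6-high groups of both libraries.

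**Figure D5:**
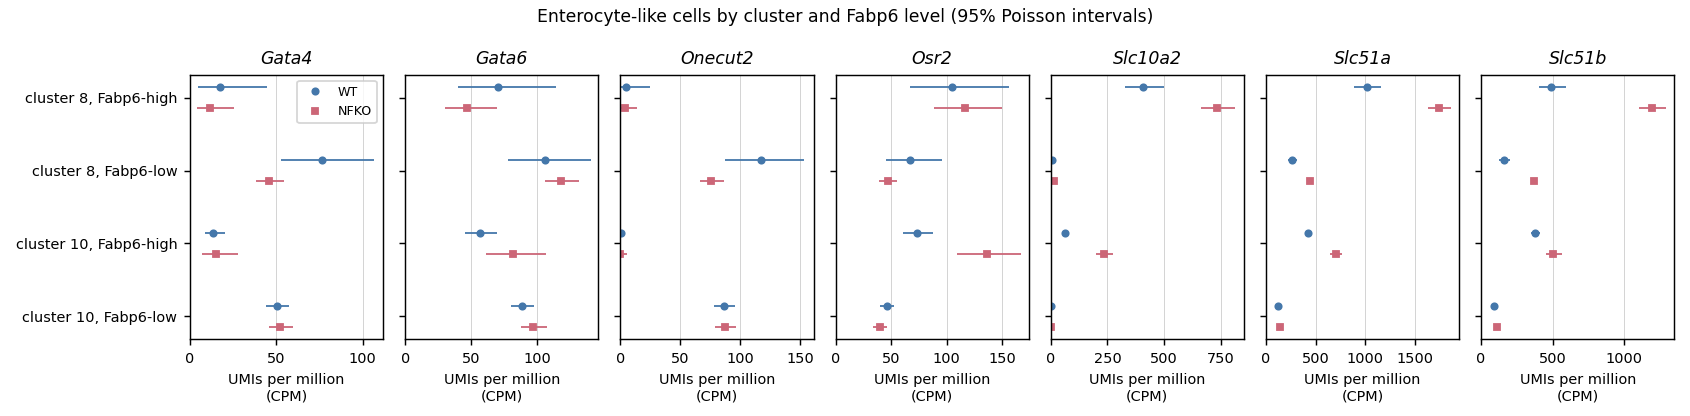
Levels in CPM (linear axes from 0) of 7 members in enterocyte-like cells divided by cluster (8 and 10) and by Fabp6 at 1000 CPM; circles are WT, squares NFKO and bars 95% Poisson intervals. Slc10a2, Slc51a and Slc51b are highest in Fabp6-high cells and Onecut2 is close to 0 there, in both clusters and both libraries.

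Outside enterocytes, Slc51b was the bile acid gene with the clearest signal. Enteroendocrine-like cells had 4.59 CPM in WT and 10.4 CPM in NFKO (ratio 2.26, interval 1.67 to 3.12), and by subtype N cells led in NFKO, at 13.8 and 63.7 CPM (ratio 4.61, interval 2.17 to 11.7). At least 1 UMI was found in 11.3% of WT and 45.3% of NFKO N cells, and in 0% and 7.94% after thinning to 2000 UMIs. In NFKO N cells Slc51b stood at 21.2% of its enterocyte-like level, while Fabp6 was at 0.290%, Slc51a at 0.510% and Alpi at 0.454%. The part of free RNA in the N cell level of Slc51b was not tested. Cluster 20, the neurotensin cluster, had 0 UMIs in its 35 WT cells and 83.0 CPM in its 88 NFKO cells. The WT cells of that cluster had a median of 3572 UMIs and allow up to 26.4 CPM. L cells had 9.17 and 18.5 CPM (ratio 2.01) and K cells 3.40 and 8.83 CPM (ratio 2.60), both called higher, and D cells had 18.1 and 15.7 CPM (ratio 0.866). The exporter's other subunit was near background in the same cells, with Slc51a at 0 and 2.01 CPM in N cells and 0.573 and 0.393 CPM in L cells.

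Slc10a2 was low in enteroendocrine-like cells (0.735 and 1.55 CPM), and its UMIs were unevenly spread. NFKO D, L and N cells had 7.84, 6.28 and 6.02 CPM from 12, 16 and 12 UMIs, against 0.152 CPM in NFKO K cells and 0 UMIs in 242 NFKO X cells. In WT the D, L and N cells had 0, 5 and 1 UMIs. The NFKO L and N cell levels were 8.91% and 8.53% of the enterocyte-like level, whereas Fabp6 in the same cells was at 0.206% and 0.290%. The part of free RNA in these Slc10a2 levels was not tested. Only L cells reached 20 UMIs over both libraries, and their ratio of 2.19 had an interval of 0.767 to 7.65, which spans 1, so at this depth a difference was not detectable.

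Whether proximal and distal factors shared cells was examined at 2000 UMIs per cell. Among enteroendocrine-like cells Onecut2 was detected in 13.2% of WT and 13.6% of NFKO cells with Osr2, against 22.0% and 28.0% of cells without it. In NFKO the intervals (8.71% to 19.8% and 25.9% to 30.2%) did not overlap, and in WT they did (7.75% to 20.6% and 19.1% to 25.05%). Gata4 was detected in 8.26% and 6.79% of cells with Osr2 and in 9.43% and 7.78% without it, and Gata6 in 20.7% and 16.7% against 20.03% and 16.6%. Pdx1 and Osr2 were found together in 4 of 24 WT and 6 of 121 NFKO cells with Pdx1. In goblet-like cells Onecut2 was found in 9.52% and 8.24% of cells with Osr2 and 6.63% and 12.2% without it, with overlapping intervals. In enteroendocrine-like cells of both libraries Onecut2 was thus detected in a smaller share of cells with Osr2, with intervals apart only in NFKO. WT had fewer cells with Osr2 (121 against 162), and the difference between the libraries was not tested.

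Lists of other regional genes were read beside the members. In enterocyte-like cells 9 of 11 other proximal absorptive genes were higher and 0 lower, with a median log2 ratio of 3.42. Leap2, a liver-type antimicrobial peptide, had 3.42 CPM in WT and 120 CPM in NFKO, S100g, a calcium-binding protein, had 54.3 and 918 CPM, and the lowest ratios were those of Slc40a1, the iron exporter (49.9 and 57.1 CPM), and Adh6a, an alcohol dehydrogenase (138 and 201 CPM). Of the other distal absorptive genes 8 of 11 were higher and 0 lower, with a median of 1.19. Cubn, the cubilin receptor, had 3.71 and 37.9 CPM and Tmigd1 14.0 and 97.5 CPM, and the lowest were Nr1h4, the bile acid receptor Fxr (70.6 and 56.4 CPM), and Naaladl1, a peptidase (79.8 and 93.0 CPM). Both lists thus had more genes higher than lower in NFKO, beside 10.1% of all genes. The clusters are weighted differently here too. Within clusters 8 and 10 the ratio was 5.38 and 5.00 for Rbp2 and 3.73 and 4.59 for Apoa4. It was 6.14 and 3.70 for Fabp1 and 3.16 and 23.6 for Lct, the last from 3 WT UMIs, so these proximal genes were higher in both. Of the distal genes, Clec2h had ratios of 1.31 and 0.714, and Fgf15 had 0.578 in cluster 8. The other genes of both lists were not divided by cluster. In enteroendocrine-like cells the counts were 6 higher and 1 lower of 11 proximal and 5 higher and 1 lower of 11 distal genes, where 5.88% of all genes were higher and 6.33% lower. In goblet-like cells they were 6 and 0 of 9 and 3 and 0 of 8, where 7.97% were higher and 5.78% lower.

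Of the other bile acid genes in enterocyte-like cells, Fgf15, the ileal hormone that reports bile acids to the liver, had 5.85 and 11.9 CPM and was called higher over the class, but was lower in cluster 8 (49.0 and 28.3 CPM, ratio 0.578, interval 0.385 to 0.887) and had 8 and 2 UMIs in cluster 10. Also higher over the class was Abcc2, an apical exporter (27.7 and 62.1 CPM), whereas Abcc3, a basolateral exporter, was lower (27.7 and 17.2 CPM). Neither was divided by cluster. In enteroendocrine-like cells 1 of 5 genes of that pathway was higher, Abcc2 (3.68 and 7.72 CPM), beside 5.88% of all genes, and in goblet-like cells 0 of 3, beside 7.97%. Hindgut and gastric genes had few counted members: in enteroendocrine-like cells Insl5, a hormone of distal L cells, had 6.98 and 17.2 CPM and Gast, the antral hormone, had 8.27 and 19.6 CPM. A hindgut hormone and a gastric hormone were thus both higher in NFKO.

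Gene patterns most like those of the members were sought over 28 points, the classes and hormone subtypes of each library with at least 50 cells, among 13484 genes. The points share libraries and depth, and the subtypes are parts of 1 class, so the correlations are descriptions. Pdx1 was closest to Gm27033 (Pearson's r of log2(CPM + 1) 0.92), a non-coding gene annotated downstream of it on the same strand, so that the division of reads between them is uncertain, and then to Gip (0.82) and Spock3 (0.81). Fabp6 was closest to Gm21885 (0.92), Apol10a (0.91) and Ocm (0.89), Slc51a to Gm21885 (0.96), Tgfbi (0.95) and Cpn2 (0.95), Slc10a2 to Slc22a4 (0.88), Slc51b (0.88) and Dpep1 (0.84), and Slc51b to Smlr1 (0.88), Mttp (0.88) and Slc10a2 (0.88). Gata4 was closest to Tmem126b (0.92), Csnk2a1 (0.92) and Capza2 (0.90), and Gata6 to Rbm42 (0.91), Eif2b2 (0.91) and Ctbp2 (0.90). Onecut2 was closest to Stx16 (0.87), Mmgt2 (0.87) and Trappc3 (0.86), and Osr2 to Cebpg (0.86), Tax1bp1 (0.86) and Lonp2 (0.85). Between members, Gata4 and Gata6 had 0.82, Fabp6 and Slc51a 0.88, and Onecut2 and Osr2 0.28.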

How the data were processed

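Tomato+ cells of 1 WT and 1 NFKO pool were profiled with the 10x 3′ kit; per the labels' processing notes the authors used Cell Ranger 5.0.1 and mm10, and they deposited raw UMI counts per gene and barcode. Whether the counting used strand was not given in the sources used here. A barcode passed (3129 WT and 5632 NFKO) with 500 or more genes detected, 1000 or more UMIs and no more than 25% of them mitochondrial. The automatic threshold of Scrublet (scanpy 1.11.5) marked 2 and 0 barcodes and had not worked, so the highest scores were removed at 0.8% per 1000 barcodes (126 and 340). Cells were clustered with Seurat 5.3.0 in R 4.3.3 (2000 variable genes without the members and regional lists, 30 components, 20 neighbours, resolution 0.8). Clusters were named by the class with the largest share of its markers raised. A cluster with fewer than 3 such markers, or a shallow one with fewer than 3 markers among its leading genes, stayed unnamed. Unnamed cluster 15 (139 WT and 108 NFKO cells) was such a shallow cluster, with 8 enteroendocrine markers raised. Enteroendocrine-like cells took the subtype of the hormone with most UMIs, at least 10 UMIs and 1000 CPM of the cell, otherwise EC without Tac1 from 3 UMIs of Tph1 or progenitor from 2 UMIs of Neurog3.

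UMIs were summed per class and library and given as CPM with exact Poisson intervals, ratios with exact conditional binomial intervals and shares with Clopper-Pearson intervals (Python 3.11.15, scipy 1.17.1). These intervals assume independent molecules, and a count of 0 was read with its upper limit. For shares cells were thinned to 2000 UMIs, which left out 32 WT and 337 NFKO cells. The ratio script was checked on simulated counts. All 9 members are named; genes most alike are the 3 with the highest correlation for members with at least 100 UMIs, and listed genes are named where they were the 2 highest or lowest ratios of their list or a result turned on them. The members and lists were chosen with earlier results of these data known. Alternatives covered scaling, cell weights, barcode filters, doublets, clustering, sex, depth and count minimum. Gene positions follow GENCODE M21 (GRCm38). Some listed genes and 1 searched motif are not reported here.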

Additional observations from a re-analysis of the deposited data

Results flagged for a closer look

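The Fabp6 ratio between the libraries went in different directions in different cell classes. It was lower in NFKO in enteroendocrine-like cells (0.332), goblet-like cells (0.381) and tuft-like cells (0.0425), and higher in Paneth-like cells (4.66). The difference between the classes was not tested, since each class has 1 library per genotype. In tuft-like cells 50% of the WT UMIs came from 1 cell, in WT goblet-like cells from 4 cells and in NFKO Paneth-like cells from 2 cells. Without the cells at or above 1000 CPM of Fabp6, the ratio was 0.460, 0.600, 0.317 and 2.86 in the same order, 2.60 in stem-like cells (0.904 with them) and 0.755 in cycling-like cells (1.40 with them). Beside the brush border gene Alpi, the enteroendocrine-like, goblet-like and Paneth-like levels of Fabp6 were no larger a share of the enterocyte-like level. The part of free RNA in them was not tested. In tuft-like cells Fabp6 stood at 3.36% of that level in WT, where Alpi had 0 UMIs, and at 0.15995% in NFKO, where Alpi stood at 0.941%.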

How the results depend on the processing

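No paired analysis was possible because each genotype has 1 library, so the groups share 1 replicate number. Pdx1 kept its call over all kept cells (10 of 10 alternatives, ratio 2.95 to 5.48), in enteroendocrine-like cells (13 of 13, 1.99 to 2.91), in enterocyte-like cells (13 of 13, from 3.42) and in goblet-like cells (12 of 12, 5.82 to 13.2), wherever 20 UMIs were left, and Osr2 in enteroendocrine-like cells (13 of 13, 0.539 to 0.619) and Onecut2 in goblet-like cells (13 of 13, 1.64 to 1.85) kept theirs. Counts of called members moved by more than 1.5 times in 25 of 108 cases. Over all kept cells, 2 were higher and 1 lower with median-of-ratios scaling, 1 and 2 with cells weighted equally, 1 and 2 with cells thinned to 2000 UMIs, and 1 was lower without doublet removal or over every deposited barcode. In enteroendocrine-like cells 4 were higher with cells weighted equally, 1 with thinning, and 1 was lower in male-typed cells. In enterocyte-like cells 2 were higher without doublet removal, with thinning, in cluster 8 or in cluster 10, and 1 with members allowed in the clustering; 1 was lower with cells weighted equally, with thinning, in cluster 8 or without Fabp6-high cells, and 2 with members allowed. In goblet-like cells 6 were higher with cells weighted equally and 1 with thinning, and 1 was lower in male-typed cells or without cluster 3.

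The ratio turned for Slc10a2 over all kept cells with thinning (0.884) and in cluster 8 (0.868), for Slc10a2, Slc51a and Slc51b in enterocyte-like cells with members allowed in the clustering (0.363, 0.928 and 0.855), and for Fabp6 in male-typed goblet-like cells (1.00). Fabp6 over all kept cells, called neither at 0.730, was 1.56 and called higher in male-typed cells. With members allowed or without doublet removal, the shallow enterocyte-like cluster stayed unnamed by construction; with it named, an alternative chosen after the data were seen like those by cluster and by Fabp6 level, the counts stayed within 1.5 times. For the rest the cause was not tested. The ratio of Pdx1 in cluster 8 has no value, since WT is at 0. Of 437 ratios 321 stayed within the interval of the reported value, and 1 of 40 subtype levels moved, Onecut2 in NFKO L cells, to 37.7 CPM at a hormone limit of 5000 CPM. Depth limits Pdx1, Slc10a2 and Slc51a outside their main classes, and 1 library per genotype limits every comparison.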
